A study of Mus musculus with 15 samples.

Results

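The comparison described here sets open chromatin of adult mouse kidney against that of adult mouse liver. Its members are all DNase peaks of these 2 lists, 72370 in kidney and 72883 in liver, which makes 145253 of the 607443 peaks in the 8 DNase lists of the series. A kidney peak and a liver peak that share 1 bp or more are called paired, and a peak with no such partner is called kidney-only or liver-only. The series has 15 mouse samples and was built to map regulatory elements of preSertoli cells, the somatic cells of the fetal testis. Kidney and liver served there as reference tissues, beside adult heart, adult brain, embryonic stem (ES) cells, skin fibroblasts and preSertoli cells of embryonic stages E13.5 and E15.5.

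Both tissues came from whole organs of adult C57BL/6J mice, with no treatment, transgene or other allele named in the labels, which give neither a sex nor an exact age. The organs were frozen and ground, and both were digested with added DNase I. Heart and brain were treated alike. The sorted preSertoli cells (C57BL/6J x CD-1 F1, with Sox9CFP in their sample titles) were instead digested by their own nucleases. Each tissue is represented by 1 library, so no test between the tissues exists, and the Wilson intervals given in brackets (95%) cover counting error only. A whole organ is a mixture of cell types, and a weak peak in all cells cannot be told apart from a strong peak in a few. The number of reads behind each list is unknown, and a site with no called peak is not thereby closed. No mm9 gene annotation was used, so peaks are described by their mm9 position and not by gene, and the tissue labels were not checked against marker genes.

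DNase I cuts DNA where regulatory proteins have displaced nucleosomes, and such hypersensitive sites mark promoters, enhancers and insulators. Promoters of widely used genes and insulator sites are open in most cell types, whereas enhancers are often open in few. Kidney tubule cells and hepatocytes are both epithelial cells with a large load of transport and metabolism, and they share some lineage regulators, among them the hepatocyte nuclear factors HNF1 and HNF4. Enhancers that serve 1 gene or a gene cluster often lie close together, which is why the spacing of tissue-restricted sites is of interest.

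Most peaks of each tissue were paired with a peak of the other. Of the kidney peaks, 44484 overlapped a liver peak, a share of 61.5% (61.1 to 61.8), and 27886 were kidney-only (38.5% of the list). Of the liver peaks, 45551 overlapped a kidney peak, a share of 62.5% (62.15 to 62.85), and 27332 were liver-only (37.5% of the list). The 2 shares are thus close to each other, and the lists are nearly equal in length. Paired peaks took up more of the length than of the number, with 76.2% of the 30.9 Mb covered in kidney and 72.6% of the 29.0 Mb covered in liver.

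The partners were mostly single. Of the paired peaks, 42225 pairs joined 1 kidney peak with 1 liver peak and nothing else. A kidney peak spanned 2 or more liver peaks in 1433 cases, and a liver peak spanned 2 or more kidney peaks in 419. Kidney peaks therefore bridged neighbouring liver peaks more often than the reverse. Among the single-partner pairs, the kidney peak was the wider in 66.7%, with a median width of 408 bp against 373 bp for its liver partner. The overlap covered a median of 87.3% of the kidney peak and 100% of the liver peak, so the typical liver peak lay wholly inside its kidney partner.

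The share of paired peaks rose with peak height. The authors give a height for each peak, and it was used here only as a percentile within its own list, because the scaling between libraries is not stated. In bins of 10 percentiles, pairing of kidney peaks went from 25.9% (24.9 to 26.9) in the lowest bin to 65.2% in the sixth bin and 99.96% (99.88 to 99.99) in the highest. Pairing of liver peaks started higher, at 37.4% (36.3 to 38.5), passed through 64.2% in the sixth bin and ended at 97.5% (97.1 to 97.8). The curves of the tissues cross at the sixth bin. Below it liver peaks were the more often paired, and above it kidney peaks were, with the widest gap in the eighth bin (86.3% of kidney peaks against 71.3% of liver peaks).

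**Figure D1:**
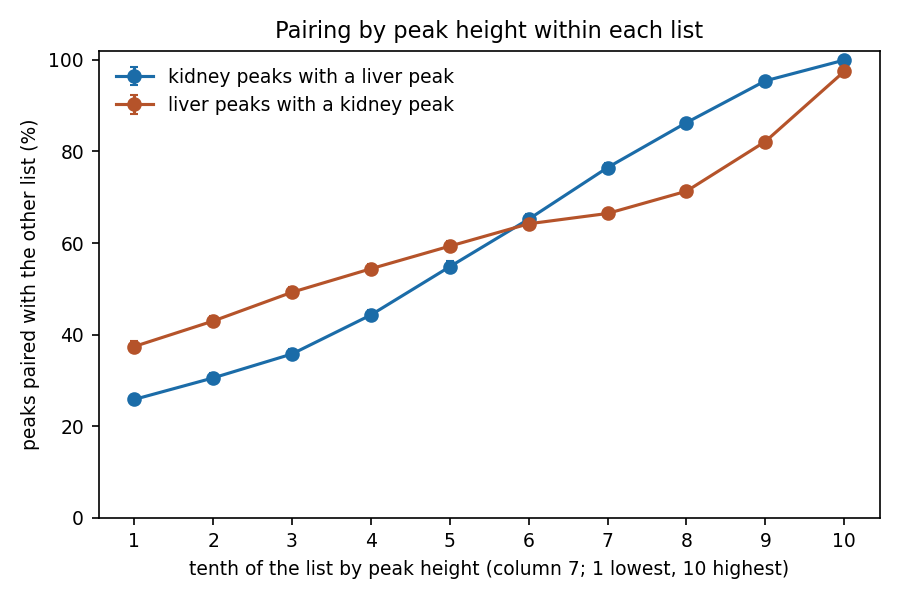
Share of peaks with a partner in the other tissue (vertical axis, %) by bin of 10 height percentiles within the list (horizontal axis), for kidney (blue) and liver (orange); bars are Wilson 95% intervals. The kidney curve runs from 25.9% to 99.96% and the liver curve from 37.4% to 97.5%, and they meet near 65% in the sixth bin.

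Peaks without a partner were accordingly low in their lists, and liver-only peaks less so than kidney-only peaks. The median height percentile was 27.4 (order-statistic 95% interval 27.1 to 28.0) for kidney-only and 66.8 for paired kidney peaks. In liver the medians were 33.6 (33.05 to 33.98) for liver-only and 60.8 for paired peaks. On each of the 20 chromosomes the liver-only median lay above the kidney-only median, although chromosomes of 1 library are not replicates. Of the kidney-only peaks 19.9% stood above the 50th percentile of their list, against 31.6% of the liver-only peaks.

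Few of the tallest peaks lacked a partner, and most of those were in liver. Above the 90th percentile, 3 of 7238 kidney peaks lacked a liver partner (0.0415%; 0.0141 to 0.122), while 183 of 7290 liver peaks lacked a kidney partner (2.51%; 2.175 to 2.895). The tallest kidney-only peak reached percentile 92.7 and the tallest liver-only peak 98.0. The same pattern held against other adult tissues. Without a heart partner were 17 of the top kidney peaks and 297 of the top liver peaks, and without a brain partner 20 and 400. In the heart list, 4 of its 7055 top peaks lacked a liver partner and 2 lacked a kidney partner. Among these 4 adult tissues, liver had the most top peaks without a counterpart in each of the other lists, and no test of that difference is possible with 1 library per tissue.

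Nearly every tall kidney peak was open across the whole series. Of the kidney peaks above the 90th percentile, 98.8% (7150) were paired with liver and also overlapped a peak in all 6 other lists. In liver this held for 6660 peaks, or 91.4%. The very tallest sites were of this kind in both tissues. The tallest peak of both lists was the same site on chromosome 17, at 39979771 to 39985958 in kidney and 39979769 to 39985951 in liver, with heights of 1.19 and 1.157. The widest peak of both lists was another such site on chromosome 11, 22739 bp wide in kidney (3052020 to 3074758) and 22812 bp in liver (3051975 to 3074786). Both sites had peaks in all 8 lists, so their presence does not separate the tissues. Both are far wider than the list medians of 339 bp in kidney and 332 bp in liver. They were not checked against an annotation of repeats.

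The 5 tallest kidney-only peaks were a mixed group. The first, on chromosome 8 (107147957 to 107148700), was 744 bp wide with a height of 0.3388, and no other list of the series had a peak there; the nearest liver peak was 5180 bp away. The second, on chromosome 6 (85137175 to 85138185), had peaks in all 6 other lists, and a liver peak lay 459 bp away, so its place in the group rests on a small gap. The third, on chromosome 4 (155433380 to 155434360), was shared with ES cells only. The fourth, on chromosome 13 (98785945 to 98786675), was shared with ES cells, fibroblasts and both preSertoli stages, with the nearest liver peak 14539 bp away. The fifth lay on chromosome 17 (26559205 to 26559910), was shared with E15.5 preSertoli cells and overlapped a preSertoli H3K27ac domain. Of these 5, then, 1 was private to kidney.

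The 5 tallest liver-only peaks were taller within their list and as mixed. The first, on chromosome 18 (3839543 to 3840240), had a height of 0.3848 at percentile 98.0, its nearest kidney peak was 32011 bp away, and E13.5 preSertoli cells alone shared it. The second, on chromosome 16 (78473569 to 78474175), stood at percentile 96.4 with no peak in any other list and 20665 bp to the nearest kidney peak. Both are isolated sites far from any kidney peak. The third, on chromosome 13 (36827803 to 36828565), and the fourth, on chromosome 12 (103919840 to 103921274), had peaks in all 6 other lists, and the fourth lay 326 bp from a kidney peak. The fifth, on chromosome 19 (46742395 to 46743297), was shared with heart. Of the 183 liver-only peaks above the 90th percentile, 86 had no peak in any other list and 3 had peaks in all 6 other lists. The 183 peaks were spread over 19 chromosomes, with at most 19 on any of them (chromosome 2).

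Paired sites also differed in rank. Across the 42225 single-partner pairs, kidney and liver percentiles had a Spearman correlation of 0.72 and a Pearson correlation of 0.66, as a description across sites that are not independent. The kidney percentile was the higher in 25640 pairs and the liver percentile in 16584. The median difference, kidney minus liver, was 2.695 percentiles, with the middle of the pairs between -4.71 and 16.0 (quartiles). Differences of 30 percentiles or more were found in 4646 pairs with kidney higher and 3028 with liver higher. At 60 or more the order was the other way, with 348 pairs for kidney and 534 for liver. Kidney was thus a little higher in many pairs, and liver far higher in more pairs than kidney was. Percentiles are ranks within the whole list, so the lower ranks of kidney-only peaks raise those of paired kidney peaks. The small excess for kidney is therefore not independent of the ranks of the unpaired peaks.

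The ranks of partners were close at the top and far apart below. A kidney peak in the highest bin had a liver partner with a median percentile of 94.9 (quartiles 91.6 and 97.5). A kidney peak in the lowest bin had a partner at 30.8 (14.8 and 53.6), about the level of partners in the next bins (31.8 and 33.1). In the other direction, liver peaks of the highest bin had kidney partners at a median of 94.99 and those of the lowest bin at 35.7. That median rose to 39.4 and 42.5 in the next bins and to 55.6 in the fifth. Among weak kidney peaks, rank therefore said little of the rank in liver, whereas kidney partners of weak liver peaks rose with liver rank.

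The most unequal pairs had a full peak in one tissue and a sliver in the other. The largest excess for kidney was on chromosome 6, where a kidney peak of 681 bp (114838801 to 114839481) stood at percentile 91.9 and its liver partner of 92 bp at 4.16. The next, on chromosome 11 (59272353 to 59272988), stood at 88.2 in kidney and 2.33 in liver. The third (chromosome 10, 128345985 to 128347363), the fourth (chromosome 7, 124577138 to 124577707) and the fifth (chromosome 3, 53460610 to 53461674) had kidney percentiles of 89.4, 86.7 and 88.3, with liver partners of 83 to 120 bp. These sites count as paired by the overlap rule, yet by rank they lean to kidney. Of these 5 kidney peaks, 3 also overlapped a peak in all 6 other lists, so they were low in liver and not private to kidney.

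The pairs leaning to liver were of another kind. The largest difference of all was on chromosome 2, where a liver peak of 711 bp (101849845 to 101850555) stood at percentile 95.01 and a kidney peak of 59 bp at 1.26. The second, also on chromosome 2 (127997849 to 127998458 in liver), stood at 90.5 against 0.186. The third on chromosome 15 (73391418 to 73392045), the fourth on chromosome 2 (33093005 to 33093553) and the fifth on chromosome 1 (20121957 to 20122713) had liver percentiles of 89.9, 90.03 and 91.2. The kidney partners of the fourth and the fifth were 65 and 78 bp wide. None of these 5 liver peaks overlapped a peak in more than 2 of the other lists, and the fourth and the fifth overlapped none. With 5 pairs a side this is a description of those pairs and was not tested.

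Width followed height. Kidney-only peaks had a median width of 237 bp (235 to 240) against 416 bp for paired kidney peaks, and liver-only peaks 266 bp (264 to 268) against 377 bp. Peaks of 1000 bp or more made up 10.6% of paired kidney and 6.175% of paired liver peaks, but 0.294% of kidney-only and 0.285% of liver-only peaks. Peaks under 150 bp made up 23.5% of kidney-only peaks and 19.7% of liver-only peaks. Height and width are closely tied in these lists, with a Spearman correlation across peaks of 0.92 in each.

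At like height the difference in width was small or turned. In the lowest bin the medians were 96 bp for kidney-only and 98 bp for paired kidney peaks, and 98 bp and 99 bp in liver. In the eighth bin peaks without a partner were the wider, by 46.5 bp in kidney (491.5 against 445 bp) and by 16 bp in liver (459 against 443 bp). In the highest liver bin paired peaks were the wider, with 817 bp against 645 bp. In the ninth bin the medians were 584 bp for kidney-only and 609 bp for paired kidney peaks, and in the highest the 3 kidney-only peaks give no usable median. The narrow width of unpaired peaks as a whole thus went with their low height.

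**Figure D2:**
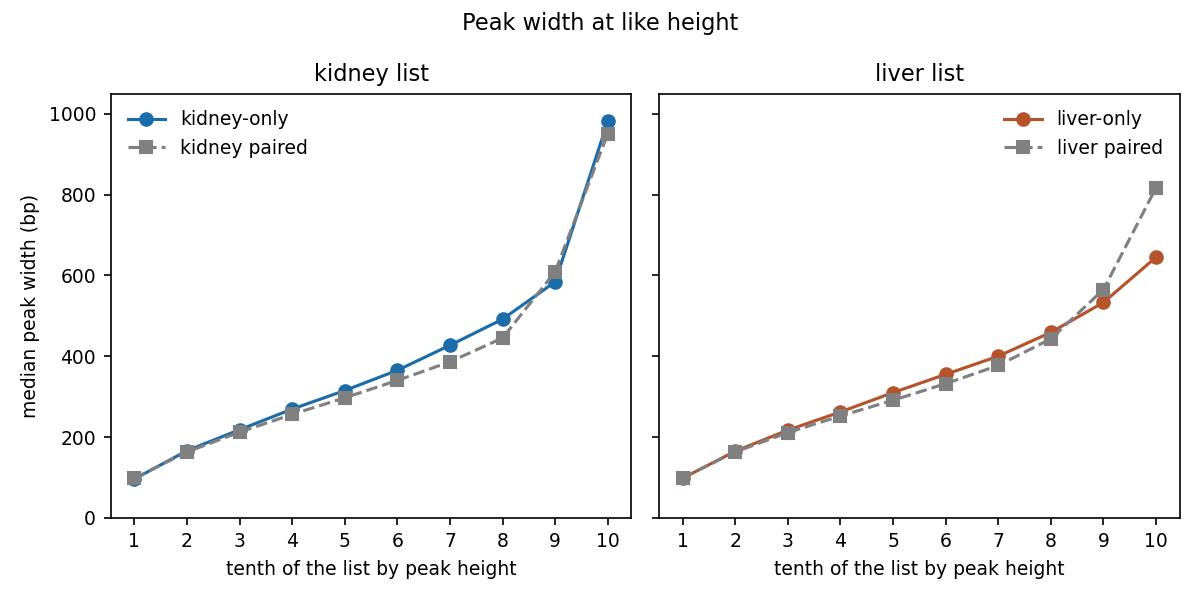
Median peak width (vertical axis, bp) by bin of 10 height percentiles (horizontal axis), for peaks without a partner (coloured, solid) and paired peaks (grey, dashed), with kidney on the left and liver on the right. Peaks without a partner are as wide as paired ones in the lowest bin and wider in the eighth (491.5 against 445 bp in kidney), and paired peaks are wider in the highest liver bin (645 against 817 bp); the highest kidney-only point rests on 3 peaks.

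The tissues also differed in where else their unpaired peaks were open. Of the kidney-only peaks, 58.6% (58.05 to 59.2) overlapped a peak in 1 or more of the 6 other lists, against 33.3% (32.7 to 33.85) of the liver-only peaks. The shares over all peaks were 76.3% in kidney and 67.3% in liver, and over paired peaks 87.3% and 87.8%. Paired peaks were thus alike in the 2 lists, as they are largely the same sites, and the gap between the lists lay among the unpaired peaks. Chromosome by chromosome the kidney-only share ran from 52.9% to 64.45% and the liver-only share from 29.2% to 37.25%, with no overlap.

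Each of the 6 lists showed the gap. Over all peaks, the share present in a given list ran from 46.7% (fibroblasts) to 59.3% (heart) in kidney. In liver it ran from 41.8% (fibroblasts) to 54.5% (heart). ES cells shared 31.3% of kidney-only and 10.9% of liver-only peaks. E13.5 preSertoli cells shared 31.25% and 11.4%, and E15.5 preSertoli cells 30.5% and 11.2%. Brain shared 24.8% and 8.65%, and fibroblasts 23.1% and 8.10%. Heart shared the most of the liver-only peaks, with 29.95% of kidney-only and 15.6% of liver-only peaks. At the far end, 1593 kidney-only peaks were present in all 6 other lists, so that liver alone had no called peak there, and 153 liver-only peaks were, so that kidney alone had none. As shares these are 5.71% and 0.560%, against 32.1% of all kidney and 30.7% of all liver peaks.

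**Figure D3:**
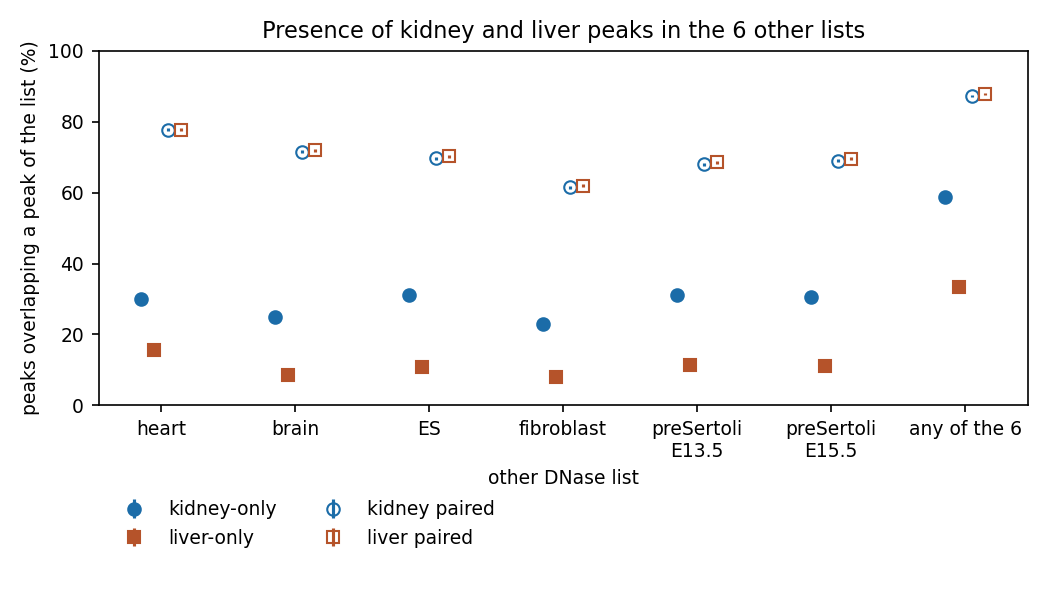
Share of peaks (vertical axis, %) that overlap a peak of each other DNase list, or of any of the 6 (horizontal axis), for kidney-only and liver-only peaks (filled) and paired peaks (open). Wilson 95% intervals are smaller than the symbols; kidney-only lies above liver-only in each list, while the paired peaks of the tissues coincide.

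The gap was seen at every height with enough peaks. In every height bin up to the ninth, the share of kidney-only peaks present elsewhere lay between 57.0% and 68.6%, while that of liver-only peaks lay between 28.2% and 41.0%. Among peaks shared with a single other list, the order of the 6 lists was the same in both classes. Heart was the partner of 33.7% of 4654 kidney-only peaks and of 38.3% of 4501 liver-only peaks, and ES cells of 25.8% and 19.4%. Over all unpaired peaks the order differed, since kidney-only peaks were shared most with ES cells (31.3%) and liver-only peaks with heart (15.6%). The lists also differ in length, from 62218 peaks in fibroblasts to 96536 in ES cells. Present in 3 or more of the 6 lists were 8460 of the 27886 kidney-only and 2418 of the 27332 liver-only peaks. Among paired peaks the numbers were 32904 of 44484 in kidney and 33932 of 45551 in liver.

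Peaks with no counterpart in any of the other 7 lists are called private. In liver 18234 peaks, 25.0% of its list, were private, and in kidney 11536 peaks, or 15.9%. Private liver peaks stood at a median percentile of 34.6 (34.1 to 35.1), above liver-only peaks shared with other lists (31.3; 30.4 to 32.1). In kidney both kinds had the same median of 27.4. At the top the order in liver was the other way, since 853 private peaks (4.68%) and 629 shared ones (6.91%) stood above the 80th percentile. In kidney 105 private peaks (0.910%) and 229 shared ones (1.401%) did. Tall unpaired peaks of both kinds were thus more numerous in the liver list.

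Sites shared by kidney and liver and by no other list numbered 5641 peaks in kidney and 5573 in liver. Their median percentile was 43.6 (42.35 to 44.7) in kidney and 51.6 (50.5 to 52.8) in liver, above the private peaks and far below the paired peaks of all 8 lists (83.9 and 78.4). In kidney this lay between paired peaks with 2 other lists (41.4) and with 3 (46.5), and in liver it was above paired peaks with 1 to 5 other lists (39.5 to 46.4). Their median widths were 302 bp in kidney and 345 bp in liver, against 634 and 496 bp for paired peaks of all 8 lists. Only 5 of these kidney peaks and 75 of these liver peaks stood above the 90th percentile.

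The preSertoli H3K27ac list, an acetylation found at active enhancers and promoters, here of fetal testis cells at E13.5, gives a readout from outside the adult tissues. Of all kidney peaks 28.5% and of all liver peaks 27.1% overlapped one of its domains. The share was 35.9% and 37.1% for paired peaks, 16.7% (16.3 to 17.2) for kidney-only and 10.4% (10.1 to 10.8) for liver-only peaks. Split by presence elsewhere, the gap was small among private peaks and larger among shared ones. Presence elsewhere includes the DNase lists of preSertoli cells themselves, so the split and this readout are not independent. Private peaks overlapped a domain in 6.50% of cases in kidney and 5.86% in liver, while peaks shared with another list did so in 23.9% and 19.6%. Among paired peaks, those found in all 8 lists stood at 56.1% in kidney and 56.9% in liver, and those found in kidney and liver alone at 7.85% and 7.97%.

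Peaks without a partner tended to follow each other along the chromosome. In kidney, a peak that came next after a kidney-only peak was itself kidney-only in 46.5% of cases, against 33.5% after a paired peak and 38.5% in the list as a whole. In liver the corresponding values were 49.0%, 30.6% and 37.5%. The order was the same on all 20 chromosomes in both lists. Across the 19 autosomes the share after a kidney-only peak ran from 44.2% to 49.1% and after a paired peak from 31.35% to 36.2%. In liver the ranges were 43.0% to 54.7% and 24.6% to 34.9%.

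**Figure D4:**
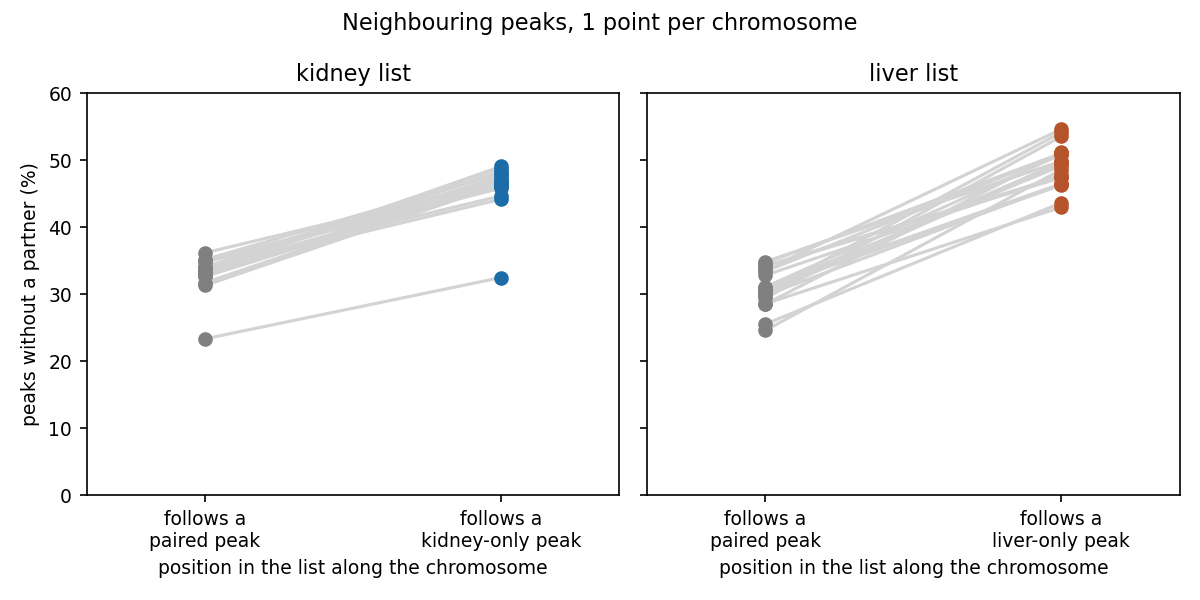
Share of peaks without a partner (vertical axis, %) among peaks that follow a paired peak or a peak without a partner in the same list (horizontal axis), 1 point per chromosome joined by a line, with kidney on the left and liver on the right. Every line rises; the low pair of points in kidney is chromosome X (23.4% and 32.5%).

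This grouping was seen at short and long spacing and at every height of the following peak. When the next peak lay within 5 kb, it was kidney-only in 49.9% of cases after a kidney-only peak and in 33.75% after a paired peak, and beyond 50 kb in 44.4% and 32.3%. In liver the values within 5 kb were 52.6% and 30.0%, and beyond 50 kb 43.6% and 33.5%. The gap in liver thus narrowed with distance more than that in kidney. Within each of the 10 height bins of the following peak, the share after an unpaired peak was the higher in both lists, though the highest kidney bin rests on 3 unpaired peaks; in the fifth bin it was 53.7% against 39.4% in kidney and 52.3% against 33.35% in liver. The grouping was thus also present among following peaks of like height, while the height of the preceding peak was not matched.

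Runs of 5 or more neighbours without a partner held 20.3% of the kidney-only peaks (862 runs) and 23.6% of the liver-only peaks (955 runs). The longest kidney run held 22 peaks on chromosome 12 (31810994 to 31968952) within 158 kb. The longest liver run held 25 peaks on chromosome 5 (146078007 to 146716421), spread over 638.4 kb. A liver run of 20 peaks on chromosome 10 (122894029 to 124764251) spanned 1870 kb, so long runs can be sparse as well as dense.

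Clustering was also counted in fixed windows of 100 kb. Windows with 5 or more kidney-only peaks numbered 1686 and held 41.5% of such peaks (40.9 to 42.1), and windows with 5 or more liver-only peaks numbered 1615 and held 38.6% (38.0 to 39.1). For paired peaks the shares were 57.0% and 58.5%. Those classes are larger (44484 and 45551 peaks), which by itself raises the share, so paired and unpaired peaks cannot be ranked by it. The order of the tissues was not stable: kidney was the higher on 11 of 20 chromosomes, and among peaks above the 50th percentile of each list liver was the higher (14.83% against 14.05%). No order of the tissues is read from it.

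Windows dense for one tissue were dense for the other more often than windows in general. Of the windows dense in kidney-only peaks, 275 were also dense in liver-only peaks, which is 16.3% of the kidney and 17.0% of the liver windows. Over all 16053 windows with a peak, 10.1% were dense in liver-only and 10.5% in kidney-only peaks. Of the dense kidney windows, 379 (22.5%) held no liver-only peak, and of the dense liver windows 419 (25.9%) held no kidney-only peak. These shares are below those of all windows, of which 36.4% held no liver-only and 35.9% no kidney-only peak. In 49 dense kidney windows there was no liver peak of any kind, and in 90 dense liver windows no kidney peak. Dense kidney windows also held a median of 5 paired kidney peaks and dense liver windows 4 paired liver peaks, against a median of 2 over all windows with a peak. Windows rich in unpaired peaks of one tissue were thus also rich in its paired peaks. The link between kidney-only and liver-only counts was weak, with a Spearman correlation of 0.13 across windows.

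Peaks in dense windows were somewhat taller than other unpaired peaks, more so in liver. Their median percentile was 37.2 (36.4 to 38.0) against 31.4 in liver, and 29.1 (28.5 to 29.7) against 26.55 in kidney. In kidney they were also more often open elsewhere, at 61.2% (60.3 to 62.1) against 56.8% for the other kidney-only peaks. In liver they were less often so, at 32.0% (31.1 to 32.9) against 34.1%. Both differences are of a few points and were not tested.

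The windows with most kidney-only peaks differed in how far their peaks were shared. The first, on chromosome 6 (52100001 to 52200000), held 23 kidney-only peaks, 12 paired ones and no liver-only peak. None of the 23 was private, for 18 were open in ES cells, 18 in fibroblasts and 14 in E13.5 preSertoli cells, but 3 in heart and none in brain. The second, on chromosome 11 (96100001 to 96200000), held 20 kidney-only peaks at a median percentile of 58.0 and no liver-only peak, and 11 of the 20 were open in E13.5 preSertoli cells against 1 each in heart and brain. Of these 20, 8 were open in ES cells, 8 in fibroblasts, and 5 were private. In both windows, then, kidney-only peaks were open more often in ES cells, fibroblasts and E13.5 preSertoli cells than in heart or brain. Their absence from liver follows from how the class is defined. The third, on chromosome 1 (74000001 to 74100000), also held 20, of which 16 were open in heart. The fourth, on chromosome 9 (63500001 to 63600000), held 19 weak peaks with a median percentile of 15.4. The fifth, on chromosome 19 (44800001 to 44900000), held 18 kidney-only and 3 paired peaks beside 1 liver-only peak, with 9 of the 18 open in ES cells.

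The windows with most liver-only peaks differed in the height of their peaks, for which the median over all liver-only peaks was percentile 33.6. The first, on chromosome 1 (85200001 to 85300000), held 24 liver-only peaks at a median percentile of 18.1, with none above 46.9. The fourth, on chromosome 8 (19900001 to 20000000), held 18 at a median percentile of 10.1 and a median width of 126 bp, beside 22 paired liver peaks. These windows are crowded with the weakest kind of peak. The third, on chromosome 9 (46000001 to 46100000), held 18 at a median of 39.7, the tallest at 88.9, with no kidney-only peak, and 11 of the 18 were private to liver. The fifth, on chromosome 10 (93500001 to 93600000), held 14 at a median of 33.8, the tallest at 90.6, and no kidney-only peak. Of these 14, 9 were private. The second, on chromosome 14 (70000001 to 70100000), held 19 at a low median of 14.35, though the tallest stood at 81.45. It also held 10 kidney-only peaks and was thus dense for both tissues.

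Unpaired peaks often lay near a peak of the other tissue. The median distance was 5720 bp from a kidney-only peak to the nearest liver peak and 5955 bp from a liver-only peak to the nearest kidney peak. Within 500 bp lay 9.10% of the kidney-only and 9.30% of the liver-only peaks, and within 200 bp 2.49% and 3.28%. Few unpaired peaks are thus narrow misses of the overlap rule. Among themselves, kidney-only peaks had a median spacing of 9030 bp to the nearest of their class and liver-only peaks 8120 bp.

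Chromosome X stood apart in kidney. There 74.3% (71.7 to 76.8) of the 1113 kidney peaks were paired, against 59.5% to 63.1% on the autosomes. The 1303 liver peaks of the X were paired in 63.5% (60.9 to 66.1), within the autosomal range of 57.4% to 68.8%. The X held 286 kidney-only and 475 liver-only peaks, a ratio of 1.66 liver-only to 1 kidney-only, the highest of all chromosomes. Its unpaired peaks were also weak, with median percentiles of 21.25 in kidney and 21.5 in liver, and sparse, with 7.69% of kidney-only peaks in dense windows. The peaks of both lists fell on 20 chromosomes, the autosomes and the X, with none on the Y. The labels give no sex for either tissue, so sex and tissue cannot be told apart here.

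The autosomes differed more in liver than in kidney. Pairing of liver peaks was highest on chromosomes 11 (68.8%), 7 (67.6%) and 17 (66.5%) and lowest on chromosomes 12 (57.4%), 16 (58.5%) and 6 (58.95%). In kidney the autosomes stayed within a few points of each other, with chromosome 15 lowest at 59.5% and chromosome 19 highest at 63.1%. The number of liver-only per kidney-only peaks ranged from 0.754 on chromosome 11 to 1.18 on chromosome 6 among the autosomes. Chromosome 11 had the most kidney peaks of any, 5792 against 5375 in liver.

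**Figure D5:**
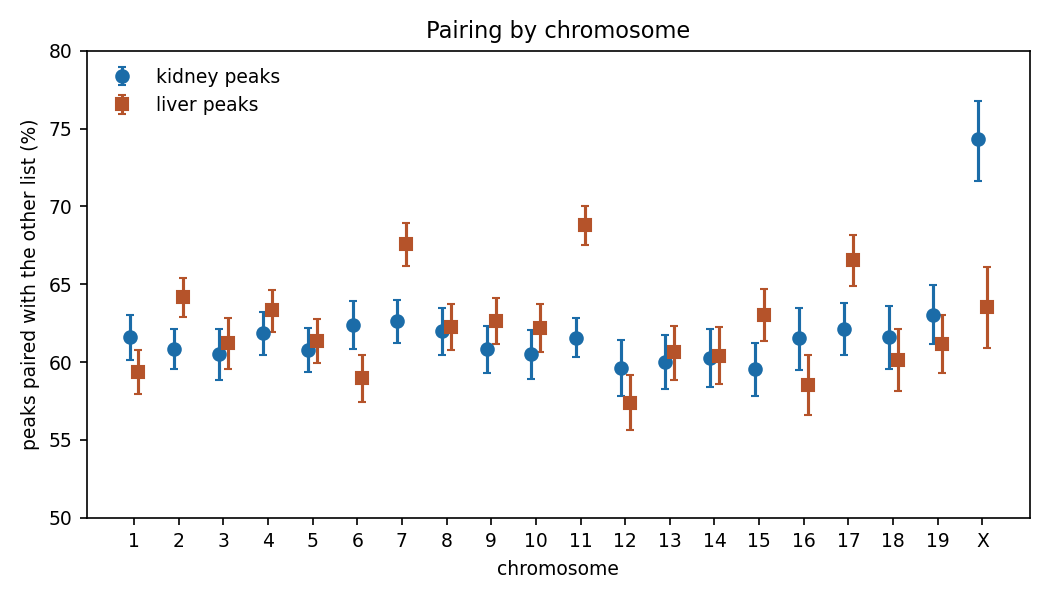
Share of kidney (blue) and liver (orange) peaks paired with the other tissue (vertical axis, %, starting at 50) on each chromosome (horizontal axis); bars are Wilson 95% intervals. Kidney peaks of chromosome X stand at 74.3%, above all autosomes, and liver peaks spread from 57.4% on chromosome 12 to 68.8% on chromosome 11.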

How the data were processed

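Adult kidney and adult liver were compared, with 1 DNase library and 1 list each. Per the submitters' processing notes, the DNase data were made on mm9 using bedtools, SAMtools and BWA (0.6.1-r104). No source used here gives the peak caller or its threshold. Each deposited list has no header, and from its values it gives a score (highest 1000), a signal height and a −log10 p (1.3 to 16) per peak. The deposited H3K27ac file gives domain positions from 2 preSertoli ChIP libraries, made with SICER per the same notes. The RNA table covers preSertoli cells and was not used.

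Peaks were paired by an overlap of 1 bp (Python 3.11.15, pandas 2.3.3, checked with bedtools 2.31.1 and tested on simulated peaks). Heights were ranked within each list, ties sharing the mean rank. A peak belonged to the 100 kb window of its midpoint, dense at 5 or more peaks of a class. Named peaks and pairs were the 5 of highest height or largest percentile difference, and named windows the 5 with most peaks. Positions are 1-based. Alternatives were 50% overlap of both peaks, peaks above the 50th percentile, equal list or class sizes, no X or Y, ranking by score and windows of 50 and 200 kb. The members and lists were chosen with earlier results of these data known. The planned marker genes and motifs need an mm9 annotation and genome and were not analysed here. Presence in other lists, H3K27ac overlap, extremes, other adult pairs and following peaks were added after the data were seen.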

Additional observations from a re-analysis of the deposited data

How the results depend on the processing

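Of 42 alternative values for 8 results, 21 stayed within the 95% interval of the value reported. Equal list lengths, leaving out X and Y, and ranking by score moved none of them. With overlap of 50% of both peaks, pairing fell to 50.5% of kidney and 50.1% of liver peaks; median percentiles were 29.7 (kidney-only) and 32.9 (liver-only), the kidney-only width 249 bp, and dense windows held 51.3% and 50.1%. Among peaks above the 50th percentile, ranked anew, pairing was 64.8% and 65.1%, the kidney-only percentile 25.0, widths 401 and 425 bp, and dense windows held 14.05% of kidney-only and 14.83% of liver-only peaks, which turned the order of the tissues. Dense shares were 19.1% and 16.65% with windows of 50 kb, 66.35% and 64.1% with 200 kb, and 40.7% for kidney-only peaks at equal class size. Pairing peaks up to 500 bp apart, chosen after seeing the data, gave 65.0% and 66.0%. Liver-only peaks kept the higher percentile and the larger width under 50% overlap, above the 50th percentile, at equal list lengths and without X and Y. No paired analysis was possible because each tissue has 1 library. Replicate error is unknown, and so is read depth, which may move weak peaks across the calling threshold in either list.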

Other observations

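Clustering of unpaired peaks by presence elsewhere went in opposite directions in the tissues, in classes of unequal size. Windows of 100 kb with 5 or more peaks of the class held 25.25% of the 16350 kidney-only peaks shared with other lists and 11.6% of the 11536 private ones. In liver they held 7.32% of the 9098 shared and 24.5% of the 18234 private peaks. With the 9098 tallest peaks of each class, chosen after seeing the data, the shares were 11.2% (Wilson interval 10.6 to 11.9) and 7.09% in kidney, and 7.32% (6.80 to 7.87) and 8.23% (7.685 to 8.815) in liver. The order in kidney stayed the same, and in liver the intervals overlapped. This choice changes class size and height together, and their parts were not tested.

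Across the 16053 windows of 100 kb with a peak of either list, counts of kidney-only and liver-only peaks had a Spearman correlation of 0.13. Counts of kidney-only and paired kidney peaks had 0.41, and of liver-only and paired liver peaks 0.34. Windows share the density of open chromatin in general, and no p-value applies.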
